A study of Mus musculus with 16 samples.

Results

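The proteasome subunits of cultured mouse hair follicle cells are described here from RNA-seq and ribosome footprinting (Ribo-seq). Members were taken by symbol, as every gene named Psma to Psmg followed by a number, with the transcript that held most footprints standing for the gene and a mean of at least 10 RNA-seq counts over the 8 RNA-seq libraries. The rule kept 48 of 50 matching genes, out of 12256 genes that reach the same mean and 22612 genes in all. Psma8 and Psmb11, whose mean RNA-seq counts were at most 0.375, were left out. The member with the lowest mean, Psme2b, had 45.4 counts. Psmc3ip, a meiotic recombination factor, matched by its letters only and is no proteasome subunit.

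The study asked how polyamines act on hair follicle stem cells (HFSCs) in an organoid culture of epidermal cells from C57BL/6J mice, the 3D–3C culture. After 2 weeks of culture, cells positive for integrin α6 were sorted into CD34-negative progenitors and CD34-positive HFSCs, each from cultures left untreated or given N1-acetylspermidine (N1-AcSpd), an acetylated polyamine, for 72 h. The 4 groups had 2 libraries in each assay, 16 in all, and by their labels replicates 1 and 2 come from 2 donor mice. RNA-seq and Ribo-seq came from the same sorted cells, and the labels name no transgene or deletion. The culture holds HFSCs outside the skin, the donors' ages were not given per sample, and P-values measure only the spread between these libraries.

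The proteasome is the barrel-shaped protease that degrades ubiquitin-tagged proteins. Its core particle is built of outer rings of alpha subunits, which form the gate, and inner rings of beta subunits, of which Psmb5, Psmb6 and Psmb7 carry the active sites. Interferon induces the alternative active-site subunits Psmb8, Psmb9 and Psmb10, which replace Psmb5, Psmb6 and Psmb7 in the immunoproteasome and change which peptides reach MHC class I. The regulatory cap unfolds substrates with its Psmc ATPases and binds and de-ubiquitinates them with its Psmd subunits. Psme proteins are alternative activators of the core, Psmf1 is known as an inhibitor, and Psmg proteins chaperone its assembly. High proteasome activity is known from several kinds of stem cell, where Psmd11 has been linked to it.

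Of the 48 members, 7 belonged to the alpha ring, 7 were constitutive beta subunits, 3 were immunoproteasome subunits, 6 were cap ATPases and 14 carried Psmd symbols. Of the Psmd genes, Psmd5, Psmd9 and Psmd10 are assembly chaperones of the cap. The others were 5 activators, Psmf1, 4 assembly chaperones and Psmc3ip. Psmb8 (ENSMUSG00000024338, chr17:34197721-34201454, plus strand) and Psmb9 (ENSMUSG00000096727, chr17:34181987-34187764, minus strand) are protein-coding genes of the MHC region. Psmb10 (ENSMUSG00000031897) is at chr8:105935735-105938444 on the minus strand. The constitutive counterparts Psmb5 (ENSMUSG00000022193) and Psmb6 (ENSMUSG00000018286) are at chr14:54614119-54618022 on the minus strand and chr11:70525367-70527858 on the plus strand. All positions are on GRCm38.

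Promoter sequence was compared because Psmb8 and Psmb9 moved apart from Psmb5 and Psmb6 in these data. RefSeq (GRCm38.p6) gave the 250 bases before the start of 41 of the 48 members. The following 30-base stretches show the motif letters found in these 4 genes, each 5′ to 3′ on the gene's strand, with the motif in capitals.
Psmb5: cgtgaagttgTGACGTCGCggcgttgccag
Psmb6: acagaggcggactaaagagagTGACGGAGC
Psmb8: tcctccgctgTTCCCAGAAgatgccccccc
Psmb9: cctgcaccgcgcgcagccgctgATTGGaaa
They lie at chr14:54618023-54618052, chr11:70525327-70525356, chr17:34198088-34198117 and chr17:34187331-34187360. GENCODE places the Psmb8 stretch in an exon of a longer Psmb8 transcript and the Psmb9 stretch in exons of 4 Psmb9 transcripts, and it places no exon over the other two.

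Psmb5 and Psmb6 held TGACNNNGC, the antioxidant response element that Nrf1 and Nrf2 read at proteasome genes, which was found on either strand in 5 of 41 members (12.2%) and in 10.2% of all 32851 windows. The other members with it were Psmc6, Psmd12 and Psmd9. Psmb8 held TTCNNNGAA, the palindromic letters of STAT sites, which 2 of 41 members (4.88%) and 7.02% of all windows carried, the other member being Psmg1. A pair of GAAA words with 2 bases between them on either strand, letters of the interferon-stimulated response element, was found in Psmb3, Psmd4 and Psmd9, 3 of 41 members (7.32%), and in 2.98% of all windows. CCAAT or its reverse ATTGG was found in 14 of 41 members (34.1%), Psmb9 among them, and in 33.8% of all windows. These are matches of letters, and no binding was measured. The RefSeq starts of Psmb9 and Tap1, the peptide transporter gene on the opposite strand, are 226 bases apart.

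RNA-seq libraries held 21612795 to 31524062 counts, whereas Ribo-seq libraries held 34475 to 268052 counts, so footprints bound every statement on translation. Krt15, Nfatc1 and Lhx2 RNA was higher in every HFSC library than in every progenitor library. So was Cd34, which is no independent marker because the cells were sorted on CD34. Sox9 overlapped, with 159 CPM in replicate 2 of treated HFSCs and 160 and 179 CPM in untreated progenitors. The summed level of these 5 HFSC markers was 382 to 424 CPM (counts scaled to the library size adjusted by TMM) in untreated progenitors and 1077 to 1247 in untreated HFSCs, and 259 to 284 against 628 to 771 CPM after N1-AcSpd. Differences between replicates 1 and 2 correlated across 12256 genes (genes are not independent replicates) by 0.35 to 0.67 among the other 3 groups, but by −0.63 to −0.38 with N1-AcSpd-treated HFSCs. The RNA-seq libraries of that group thus go against their replicate numbers. The numbers were kept as labelled, and beside the main results that rest on these 2 libraries stands the comparison that does not involve them (untreated cells, or progenitors).

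The same libraries stood apart for the proteasome. In N1-AcSpd-treated HFSCs, RNA of all 34 core and cap members (alpha ring, constitutive beta ring, Psmc and Psmd) was lower in replicate 1 than in replicate 2, by a median of −0.30 on the log2 scale, against 50.1% of all 14224 genes tested. In the other groups 7 (untreated progenitors), 14 (untreated HFSCs) and 2 (treated progenitors) of the 34 were lower in replicate 1, with medians of 0.07, 0.05 and 0.16. The spread within treated HFSCs was therefore as large as most of the differences between groups described next for the core and cap.

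RNA levels per kilobase of transcript were highest for the constitutive beta ring, with a median of 174 CPM per kb, followed by the alpha ring (121), the cap ATPases (112) and the Psmd members (61.3). The activators had a median of 48.2, the Psmg chaperones of 35.5 and the immunoproteasome subunits of 18.6 CPM per kb. The highest single members were Psmb6 at 255, the gate subunit Psma7 at 230 and Psmb4 at 221 CPM per kb. The lowest were Psme2b at 2.09, Psmc3ip at 5.60 and Psmf1 at 8.34. Each value was divided by the length of the transcript kept, such as 2911 bases for Psma2 and 3809 for Psmf1. Copies elsewhere in the genome hold 81.5% of the 28-base words of the Psmb3 transcript and 80.0% of those of Psmb5. The part of transcript choice and of copies in this order was not tested. Together the 48 members took 0.643% ± 0.022 (SD, n = 2) of RNA-seq counts in untreated progenitors and 0.632% ± 0.025 in untreated HFSCs. After N1-AcSpd the shares were 0.668% ± 0.076 and 0.636% ± 0.086, so the 4 groups overlapped.

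RNA of the immunoproteasome subunits Psmb9 and Psmb8 was higher in HFSCs than in progenitors, 1.72-fold and 1.58-fold over both treatments, and the remaining 46 members did not pass the test. Psmb9, which replaces Psmb6, was at 13.6 and 18.8 CPM (replicates 1 and 2) in untreated progenitors and at 23.6 and 34.4 CPM in untreated HFSCs. After N1-AcSpd it was at 9.40 and 10.5 CPM in progenitors and at 17.0 and 15.8 CPM in HFSCs. Both HFSC libraries were above both progenitor libraries within each treatment, although treated HFSCs overlapped untreated progenitors. Psmb8, which replaces Psmb5, was at 45.5 and 59.6 CPM in untreated progenitors and at 68.7 and 83.5 CPM in untreated HFSCs. After N1-AcSpd it was at 29.1 and 43.2 CPM in progenitors and at 62.7 and 62.5 CPM in HFSCs. All 4 HFSC libraries lay above all 4 progenitor libraries for Psmb8, which no other member showed (1 of 48, a smaller share than the 5.1% of all genes).

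The log2 fold change of HFSCs over progenitors, as the mean of both treatments, was 0.78 ± 0.15 (SE) for Psmb9 (adjusted P=0.029 by the quasi-likelihood test of edgeR, Benjamini-Hochberg) and 0.66 ± 0.14 for Psmb8 (adjusted P=0.038). These were the 2 of 48 members called, both in the higher direction, against 3.91% of the 14224 genes tested in either direction and 2.11% higher. As a number of calls, 2 of 48 was near the 3.91% of all genes, so members were not called more often than other genes. Psmb10, which replaces Psmb7 and lies outside the MHC, was at 24.2 and 20.4 CPM in untreated progenitors and 27.8 and 24.4 CPM in untreated HFSCs. In treated cells its values were 25.2 and 20.1 CPM in progenitors and 19.0 and 33.5 CPM in HFSCs, which overlapped, and the test did not call it (0.22 ± 0.17, adjusted P=0.56).

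Each treatment taken alone gave the same direction without a call in the edgeR fit used throughout, although DESeq2, a blocked fit with exchanged replicate numbers and, in treated cells, edgeR without a count minimum made calls. In untreated cells, which do not involve the 2 libraries that stand apart except through the shared estimate of spread, Psmb9 had a log2 fold change of 0.84 ± 0.21 (adjusted P=0.20 by edgeR) and Psmb8 of 0.53 ± 0.20 (adjusted P=0.41). No member was called by edgeR there, with 2 of 48 under an unadjusted P of 0.05 (9.58% of all genes). Of all genes 0.148% were called by edgeR. DESeq2 called 1 member, Psmb9, and 2.09% of the genes to which it gave an adjusted P. In N1-AcSpd-treated cells the values were 0.72 ± 0.22 for Psmb9 (adjusted P=0.24) and 0.79 ± 0.20 for Psmb8 (adjusted P=0.15). There, too, edgeR called no member, with 0.745% of all genes called, and DESeq2 called Psmb8, with 2.93% of genes. Without a count minimum edgeR called Psmb8 (adjusted P=0.046) and 1.63% of genes. Psmb8 and Psmb9 were the 2 members under an unadjusted P of 0.05, against 11.2% of all genes. By replicate number, the difference over both treatments was 0.85 and 0.73 for Psmb9 and 0.88 and 0.51 for Psmb8.

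The calls depended on which libraries were kept. The log2 fold change stayed positive when any library was left out, at 0.63 to 0.91 for Psmb9 and 0.53 to 0.83 for Psmb8, but the adjusted P by edgeR rose above 0.05 for each of them in 6 of 8 such fits. Without replicate 1 of the treated HFSCs it was 0.088 for Psmb9 and 0.11 for Psmb8, and without replicate 2 it was 0.059 and 0.084. Psmb9 stayed called without replicate 1 of untreated HFSCs (0.022) or replicate 2 of untreated progenitors (0.031). Psmb8 stayed called without replicate 2 of treated progenitors (0.017) or of untreated progenitors (0.045). Summing counts over all transcripts of a gene, an alternative chosen after seeing the data, gave an adjusted P of 0.056 for Psmb8.

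Some reads at these genes cannot be assigned to a strand, since the strand setting of the counting is not given in the sources used here. Exons of Tap1 on the opposite strand cover 212 of the 1352 bases of the Psmb9 transcript (15.7%), and exons of Gm20496 cover 11.4% of Psmb8. The limit also holds for Psmb7, of which exons of Nek6 on the opposite strand cover 34.9%. Mir686 on the same strand covers 12.1% of Psmb5. Tap1 RNA, like Psmb9, was on average highest in untreated HFSCs and lowest in treated progenitors, with 87.6 and 135 CPM in untreated progenitors, 112 and 170 in untreated HFSCs, 63.7 and 87.9 in treated progenitors and 124 and 96.4 in treated HFSCs. In bulk RNA a change in the number of cells of a type and a change of RNA per cell cannot be told apart.

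The constitutive active-site subunits were not called. Psmb5, the chymotrypsin-like subunit, was at 157 and 156 CPM in untreated progenitors, 150 and 150 CPM in untreated HFSCs, 166 and 163 CPM in treated progenitors and 142 and 169 CPM in treated HFSCs (HFSC over progenitor −0.07 ± 0.08). Psmb6, the caspase-like subunit, was at 213 and 201, 193 and 207, 223 and 196, and 166 and 228 CPM in the same order (−0.07 ± 0.11). Psmb7, the trypsin-like subunit, was at 196 and 185, 186 and 160, 203 and 182, and 146 and 188 CPM (−0.17 ± 0.10). The cell types overlapped over the 8 libraries for each of the 3 genes, and the treated HFSC libraries spanned most of each range.

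Per kilobase of transcript, Psmb8 made up 15.6% ± 2.6 (SD, n = 2) of the sum of Psmb5 and Psmb8 RNA in untreated progenitors and 21.9% ± 2.3 in untreated HFSCs. After N1-AcSpd the share was 10.8% ± 2.8 in progenitors and 18.3% ± 1.8 in HFSCs. The libraries ranged from 8.82% in replicate 1 of treated progenitors to 23.5% in replicate 2 of untreated HFSCs, and HFSCs were above progenitors within each treatment. For Psmb9 among Psmb6 and Psmb9 the shares were 4.42% ± 1.13 and 7.83% ± 1.57 in untreated progenitors and HFSCs, and 2.75% ± 0.46 and 4.82% ± 1.25 after N1-AcSpd. For Psmb10 among Psmb7 and Psmb10 they were 9.37% ± 0.68, 11.8% ± 0.17, 9.40% ± 0.70 and 11.9% ± 2.3. In RNA the constitutive subunit of each pair was the more abundant in all 8 libraries. In footprints per kilobase of coding sequence Psmb8 made up over 50% of Psmb5 and Psmb8 in 5 of 8 libraries, with a range from 0% to 82.0%, Psmb9 over 50% of its pair in 1 (0% to 52.1%) and Psmb10 in 0 (3.07% to 31.6%). Copies elsewhere in the genome hold 80.0% of the 28-base words of the Psmb5 transcript and 0% of those of Psmb8. Per kilobase of coding words not found elsewhere, which holds if only such words gave footprints, Psmb5 had a mean of 927 and Psmb8 of 224 CPM, so the order of this pair in footprints depended on the scaling.

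With N1-AcSpd, RNA of Psmb9 was 0.59 times and that of Psmb8 0.752 times the untreated level over both cell types, without a call by edgeR. Both genes were lower in both cell types, from the values given above. For Psmb9 the log2 fold change was −0.76 ± 0.15 (adjusted P=0.052), −0.70 in progenitors (adjusted P=0.37) and −0.82 ± 0.21 in HFSCs (adjusted P=0.34). For Psmb8 it was −0.41 ± 0.14 over both cell types (adjusted P=0.20), −0.54 in progenitors (adjusted P=0.46) and −0.28 in HFSCs (adjusted P=0.80). Psmb10 gave 0.02 ± 0.17. DESeq2 called Psmb9 over both cell types (adjusted P=9.5e-04), as did edgeR without a minimum on low counts (0.015, with 2.57% of genes called).

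No member was called for N1-AcSpd over both cell types by edgeR, against 1.64% of all genes, and 5 of 48 had an unadjusted P under 0.05 (15.6% of all genes), while DESeq2 called 1 (4.43% of genes). In progenitors alone 0 of 48 were called (0.239% of all genes) by edgeR and 0 by DESeq2, with 3 at an unadjusted P under 0.05 (8.87%). In HFSCs alone edgeR called 0 of 48 and 0.0% of all genes, DESeq2 called 0, and Psmb9 was the member under an unadjusted P of 0.05 (7.73% of all genes). The difference of the N1-AcSpd effect between cell types was −0.12 ± 0.31 for Psmb9 and 0.26 ± 0.28 for Psmb8. That test called 0 members and 0.0% of genes by edgeR, 0 members by DESeq2, and 0 members at an unadjusted P under 0.05 (0.83% of all genes).

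A block for the replicate number left the number of calls as it was. When the numbers of the 2 treated HFSC libraries were exchanged, which was added once the data were known, the blocked edgeR fit made more calls among all genes too. It called Psmb9 (adjusted P=0.0011) and Psmb8 (0.015) for N1-AcSpd over both cell types, against 8.86% of all genes. For HFSCs over progenitors it called Psme1 (0.032) besides Psmb8 and Psmb9 over both treatments (13.7% of all genes), and Psmb8 and Psmb9 in untreated cells (0.027 and 0.0049, 5.29% of all genes) and in treated cells (0.0024 and 0.012, 6.35%).

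Genes of MHC class I presentation and interferon signalling were read beside the immunoproteasome from a list of 26. With N1-AcSpd over both cell types 25 of 26 had a negative log2 fold change, as did 52.9% of all genes. The median was −0.25 against −0.01 for all genes, 13 had an unadjusted P under 0.05 (15.6% of all genes) and 1 was called (1.64%). In progenitors 25 (52.7% of all genes) and in HFSCs 24 of 26 (52.1%) were negative, with no call by edgeR, 12 and 8 at an unadjusted P under 0.05 (8.87% and 7.73% of all genes), and 3 and 1 calls by DESeq2. DESeq2 called 1.33% and 1.04% of all genes there. Over both cell types it called 8 of the 26, against 4.43% of all genes. Irf7, a transcription factor of the interferon response, was the gene called (−2.63 ± 0.41, adjusted P=0.022 by edgeR). It was at 5.16 and 2.02 CPM in untreated progenitors and 6.03 and 2.76 in untreated HFSCs, and at 0.77 and 0.58 CPM in treated progenitors and 0.79 and 0.45 in treated HFSCs. All 4 treated libraries were below all 4 untreated ones, as for Ifit1 and Gbp3 (3 of 26, against 3.89% of all genes). In progenitors alone Irf7 had −2.40 ± 0.59 (adjusted P=0.22). Irf9, another transcription factor of that response, had −0.68 ± 0.14 (adjusted P=0.053), and Gbp2, an interferon-induced GTPase, −0.95 ± 0.19 (adjusted P=0.054).

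Between cell types, over both treatments, 22 of these 26 genes had a positive log2 fold change for HFSC over progenitor (48.9% of all genes did). The median was 0.16, and 1 of 26 was called, near the 3.91% of all genes. In untreated cells alone 17 of 26 were positive (47.7% of all genes), with a median of 0.10 and no call by edgeR or DESeq2, and 2 had an unadjusted P under 0.05 (9.58%). Tap2, the partner of Tap1 in the peptide transporter, was at 63.7 and 81.0 CPM in untreated progenitors, 93.7 and 116 in untreated HFSCs, 39.2 and 57.8 in treated progenitors and 88.5 and 73.5 in treated HFSCs. Its log2 fold change was 0.64 ± 0.15 (adjusted P=0.0496 by edgeR), close to the threshold, and 0.53 ± 0.20 in untreated cells (adjusted P=0.43). B2m, the light chain of MHC class I, had 0.21 ± 0.23 and −0.19 ± 0.23 for cell type and N1-AcSpd. The list was chosen with these data known, so its direction is no independent evidence.

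**Figure D1:**
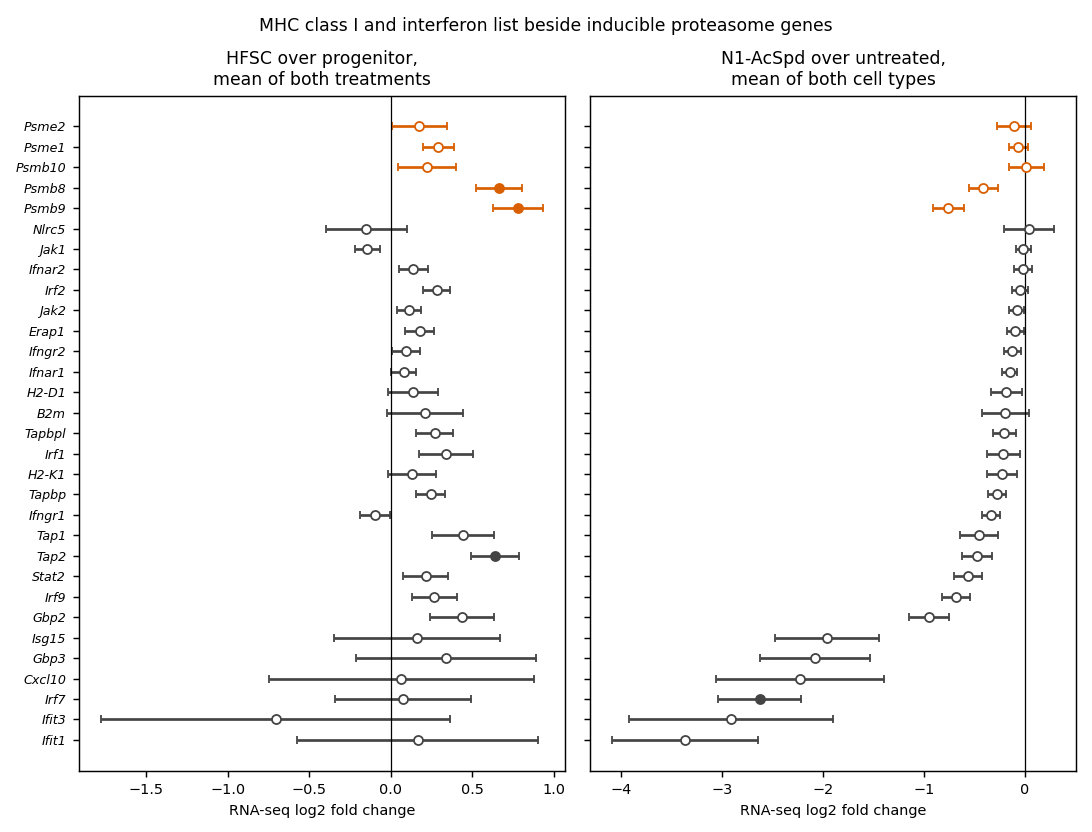
Log2 fold change ± SE of RNA for 26 MHC class I and interferon genes and 5 members (Psmb8, Psmb9, Psmb10, Psme1 and Psme2), for HFSC over progenitor and for N1-AcSpd over untreated, each as the mean over the other factor. For N1-AcSpd 25 of the 26 list genes lie below 0 and so do Psmb9 at −0.76 and Psmb8 at −0.41, while for cell type 22 of 26 lie above 0.

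Leukocytes express immunoproteasome genes at high levels, so their markers were read in the same libraries. Of 7 leukocyte markers Cd52, Cd207 and Tyrobp had no count in any library. The summed level of the 7 was 2.11 to 3.01 CPM in untreated progenitors, 1.68 to 2.23 in untreated HFSCs, 4.25 to 5.36 in treated progenitors and 2.56 to 3.16 in treated HFSCs, with Cd68 the most abundant. The ranges of progenitors and HFSCs overlapped without treatment but not after N1-AcSpd, where progenitors were higher. The cells had been sorted for integrin α6. Markers of differentiated keratinocytes (4 of 4 detected, Krt1 the most abundant) were at 49.9 to 62.7, 27.6 to 27.6, 137 to 213 and 49.2 to 69.7 CPM in the same order. The part of either marker list in the immunoproteasome values was not tested.

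The constitutive core and cap had no call between cell types. Over both treatments 32 of 34 core and cap members had a negative log2 fold change, with a median of −0.11 against −0.01 for all genes, of which 51.1% were lower. The 7 alpha and 7 constitutive beta subunits had negative values, none past the test, both without treatment (medians −0.08 and −0.07, 52.2% of all genes negative) and with N1-AcSpd (−0.08 and −0.10, 49.6%). After N1-AcSpd the direction depended on the replicate number, with 14 of these 14 lower within replicate 1 and 0 within replicate 2. All 48 members had a median of −0.26 within replicate 1 (45 lower) and 0.13 within replicate 2 (6 lower), whereas the untreated medians were −0.05 and −0.07.

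Psmd8, a lid subunit of the cap, was the member whose 4 HFSC libraries were all below the 4 progenitor libraries (1 of 48, a smaller share than the 4.42% of all genes). It was at 243 and 255 CPM in untreated progenitors, 207 and 227 in untreated HFSCs, 239 and 267 in treated progenitors and 204 and 233 in treated HFSCs. Its log2 fold change was −0.21 ± 0.08 (adjusted P=0.21 by edgeR), and −0.20 ± 0.11 in untreated cells alone. Psmd6, also of the lid, followed with −0.18 ± 0.08 (adjusted P=0.28), and −0.22 ± 0.12 in untreated cells. Psmd11, the lid subunit linked to proteasome activity in embryonic stem cells, was at 163 and 153 CPM in untreated progenitors, 150 and 135 in untreated HFSCs, 180 and 161 in treated progenitors and 148 and 164 in treated HFSCs. It was lower in untreated HFSCs than in untreated progenitors and overlapped after N1-AcSpd (−0.14 ± 0.08 over both, adjusted P=0.40). Psmd14, the de-ubiquitinase of the lid, was at 110 and 103, 110 and 89.6, 129 and 99.7, and 95.1 and 117 CPM in the same order and overlapped throughout (−0.10 ± 0.11, adjusted P=0.69).

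The 6 ATPases, Psmc1 to Psmc6, lay between −0.13 for Psmc1 and −0.02 for Psmc3 for HFSC over progenitor. Among the Psmd genes, 12 of 14 had a negative value, and the 2 with a positive value were the assembly chaperones Psmd10 (0.10 ± 0.12) and Psmd9 (0.02 ± 0.09). Psmd10, also called gankyrin, was at 23.9 and 20.3 CPM in untreated progenitors, 24.8 and 22.7 in untreated HFSCs, 19.8 and 19.2 in treated progenitors and 17.6 and 23.8 in treated HFSCs. The 4 Psmg chaperones lay between −0.15 (Psmg3) and 0.01 (Psmg2). Psmf1 had 0.06 ± 0.10 and Psmc3ip 0.10 ± 0.14.

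With N1-AcSpd the core and cap again had no call. Of the 34 members 27 had a positive log2 fold change over both cell types, as did 47.1% of all genes, with a median of 0.07. In progenitors alone it was 30 of 34 with the same median (47.2% of all genes), with 3 negative within replicate 1 and 15 within replicate 2. Over both cell types all 7 alpha subunits were positive (median 0.13, from 0.05 for Psma7 to 0.16 for Psma2). The constitutive beta ring was split, with 4 of 7 positive, from −0.06 for Psmb4 to 0.21 for Psmb2. In treated HFSCs the median over the 48 members was −0.07 within replicate 1 (39 lower) and 0.23 within replicate 2 (3 lower). In progenitors, which do not involve those libraries, it was 0.10 and 0.02.

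Psmd7, a lid subunit that pairs with Psmd14, was the member whose 4 treated libraries were all above the 4 untreated ones (1 of 48, a smaller share than the 3.95% of all genes). It was at 96.3 and 86.1 CPM in untreated progenitors, 88.0 and 96.3 in untreated HFSCs, 116 and 109 in treated progenitors and 101 and 105 in treated HFSCs. Its log2 fold change was 0.23 ± 0.07 (adjusted P=0.18 by edgeR), with 0.24 and 0.23 by replicate number and 0.30 ± 0.10 in progenitors alone. Psmg3, an assembly chaperone of the core, had 0.26 ± 0.11 (adjusted P=0.32), and 0.26 ± 0.16 in progenitors. No member was below the untreated libraries in all 4 treated ones (0 of 48, against 3.89% of all genes).

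**Figure D2:**
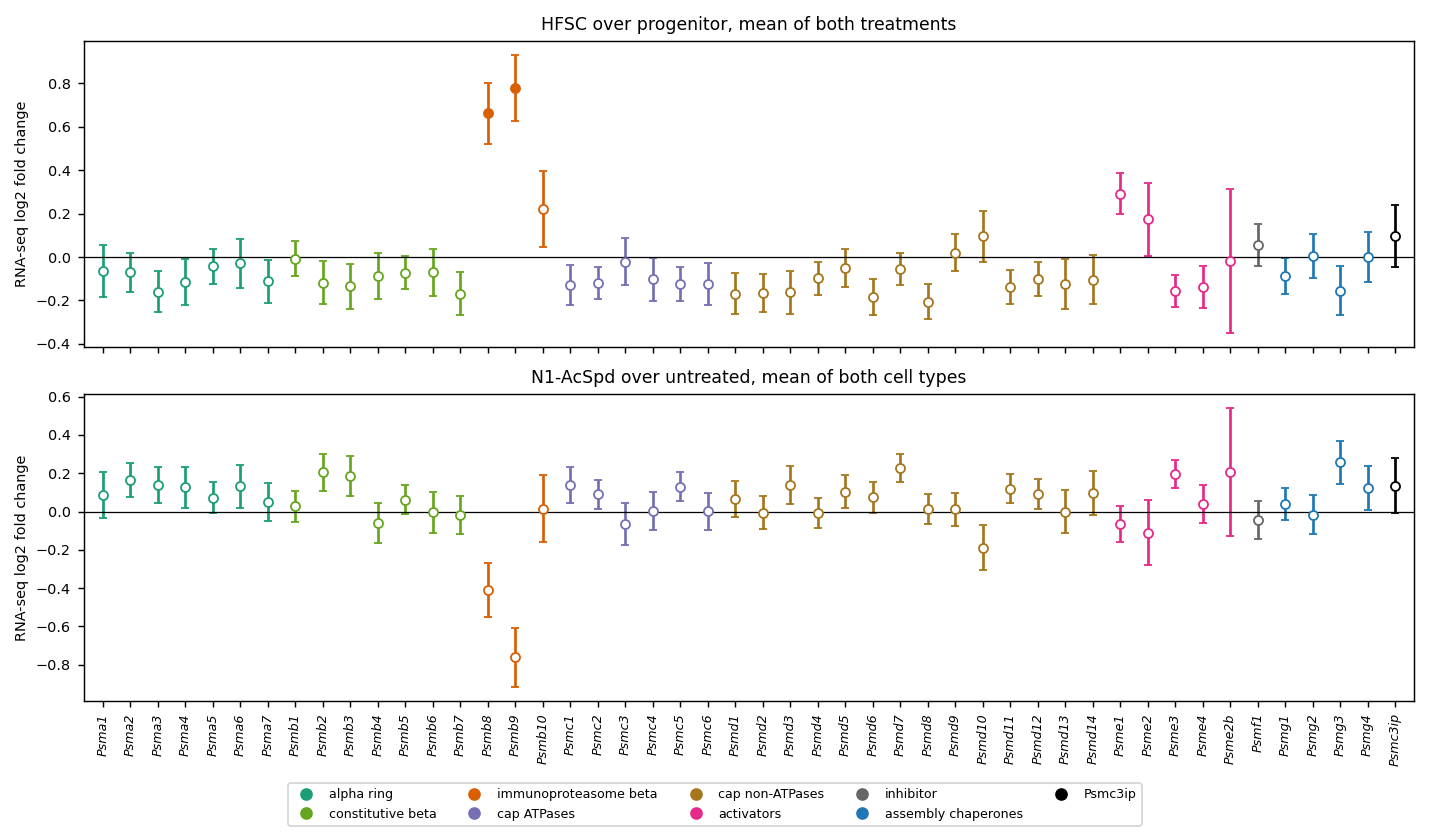
Log2 fold change ± SE of RNA for all 48 members, grouped by role, for HFSC over progenitor and for N1-AcSpd over untreated, each as the mean over the other factor. Filled points have an adjusted P under 0.05, which holds for Psmb8 and Psmb9 between cell types, and 37 of 48 members lie below 0 between cell types while 35 of 48 lie above 0 for N1-AcSpd.

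The activators did not move as a group. Psme1, which with Psme2 forms the interferon-induced PA28αβ ring, was at 70.0 and 67.6 CPM in untreated progenitors, 83.1 and 86.4 in untreated HFSCs, 68.7 and 63.5 in treated progenitors and 69.6 and 91.1 in treated HFSCs. It was higher in untreated HFSCs than in any progenitor library, and replicate 1 of treated HFSCs fell among the progenitors (0.29 ± 0.09 over both treatments, adjusted P=0.14 by edgeR). Psme2 was at 142 and 120, 157 and 134, 134 and 105, and 100 and 173 CPM in the same order and overlapped (0.17 ± 0.17, adjusted P=0.64). Psme3, the nuclear PA28γ, was at 129 and 123 CPM in untreated progenitors, 120 and 107 in untreated HFSCs, 150 and 140 in treated progenitors and 124 and 134 in treated HFSCs. Its log2 fold change was −0.16 ± 0.07 for HFSC over progenitor (adjusted P=0.30) and 0.19 ± 0.07 for N1-AcSpd (adjusted P=0.24). Psme4, or PA200, had −0.14 ± 0.10 and 0.04 ± 0.10.

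Of 30 proteasome partners and regulators 29 were found in the table, and none was called by edgeR or DESeq2 in an RNA-seq comparison of cell type or N1-AcSpd. For HFSC over progenitor 24 of 29 had a negative log2 fold change over both treatments (median −0.10, 51.1% of all genes), and 5 had an unadjusted P under 0.05 (18.1% of all genes). In untreated cells alone 24 of 29 were negative too (52.2% of all genes), with the same median and 1 at an unadjusted P under 0.05 (9.58% of all genes). Nfe2l1, which encodes Nrf1, the transcription factor of proteasome genes, was at 276 and 279 CPM in untreated progenitors, 242 and 234 in untreated HFSCs, 253 and 253 in treated progenitors and 232 and 226 in treated HFSCs. All 4 HFSC libraries were below all 4 progenitor libraries, as for Ubqln1 (2 of 29 partners, against 4.42% of all genes). The log2 fold change of Nfe2l1 was −0.19 ± 0.06 (adjusted P=0.16 by edgeR), and −0.22 ± 0.09 in untreated cells (adjusted P=0.46). Its footprints (0.54 ± 0.35, adjusted P=1.0) and footprints relative to RNA (0.74 ± 0.30, unadjusted P=0.023, adjusted P=0.80) had the opposite sign over both treatments. The next smallest P-values belonged to Sem1, a small lid subunit (−0.21 ± 0.08, adjusted P=0.18), and Ubqln1, a ubiquitin shuttle (−0.18 ± 0.07, adjusted P=0.21). Pomp, the maturation factor of the core, was at 115 and 111, 110 and 106, 132 and 116, and 91.2 and 135 CPM in the same order. With N1-AcSpd 24 of 29 partners had a positive log2 fold change over both cell types, with a median of 0.06 (47.1% of all genes). In progenitors alone it was 22 of 29 (47.2%), and in HFSCs 17 were negative within replicate 1 and 6 within replicate 2.

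Footprints gave a coarser view. Of the 48 members 47 had a mean of at least 1 footprint per library and were tested, 33 had a mean of at least 10, and 37 had a footprint in all 8 libraries. Members took 1.12%, 1.01%, 1.09% and 1.17% of footprints in untreated progenitors, untreated HFSCs, treated progenitors and treated HFSCs as group means. Footprint density per kilobase of coding sequence was compared among the 39 members with under 50% of the 28-base words of their coding sequence found elsewhere in the genome. The constitutive beta ring (5 members) had a median of 603 CPM per kb and the alpha ring (4 members) of 568, then came the ATPases (301) and the Psmd members (172). The activators (3 members) had 115 and the immunoproteasome subunits 91.8. With all 48 members the alpha ring had 320 and the activators 31.8, the latter being the value of Psme2, a gene with copies. The densest of the 39 were Psmb4 (982), Psma6 (715) and Psmb1 (706). Per kilobase of coding words not found elsewhere, Psmb3 came first of the 48 with 1780 CPM, followed by Psmb4 with 1016.

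Near copies of some members elsewhere in the genome were measured as the share of 28-base words of the coding sequence that also occur elsewhere. In 9 members at least 50% of words did, among them Psma3 (92.4%), Psma5 (90.4%), Psmb3 (85.9%), Psme2 (80.6%) and Psmb5 (80.4%). Their log2 ratio of Ribo-seq to RNA-seq CPM had a median of −0.17 and ranged from −4.11 to 0.13. In the 28 members with under 1% of such words the median was 1.31, with a range from −0.83 for Psme4 to 2.19. Low ratios were also found in members with few or no such words, as in Psmd3 (−0.11, 0% of words) and Psmd8 (−0.45, 3.49%). Psma3, for which the pseudogene Gm13835 is a copy, had 8 footprints over the 8 libraries, Psma5 25 and Psme2 21. These are counts of the transcript kept, which held 25.0%, 83.3% and 43.8% of the counts summed over the transcripts of each gene, and the part of that choice in the ratios was not tested. Across the 48 genes, which share libraries and are not replicates, Pearson's r was −0.74 and Spearman's rho −0.58. How reads with several matches were treated is not given in the sources used here. The part of copies in these ratios was not tested, and Psmb8, Psmb9 and Psmb10 had 0% of such words.

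**Figure D3:**
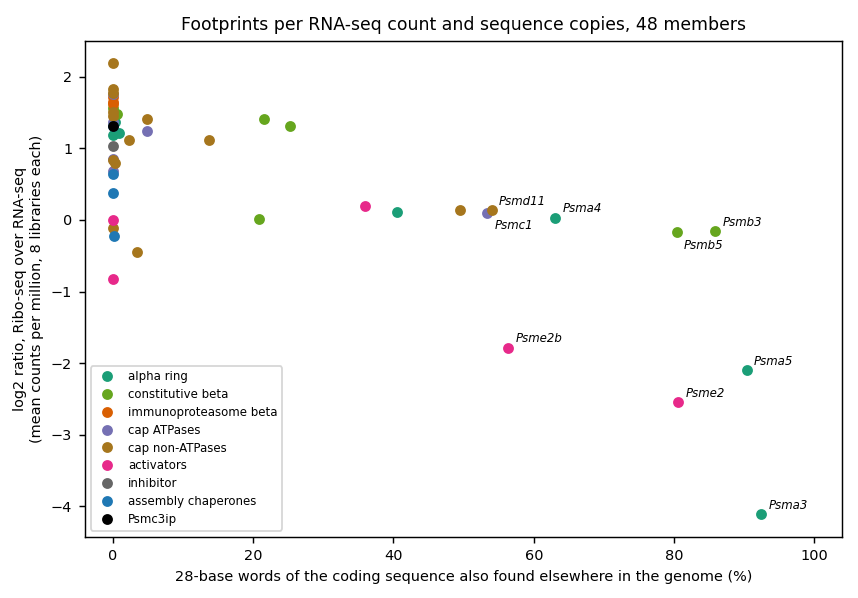
Log2 ratio of mean Ribo-seq over mean RNA-seq CPM (8 libraries each) against the percentage of 28-base coding words found elsewhere in the genome, with 1 point for each of the 48 members, coloured by role. Members at 0% mostly lie between 0 and 2, and those above 50% lie at or below 0.13, down to −4.11 for Psma3.

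The transcript kept held 71.0% of the footprints summed over the transcripts of Psmb9 and 51.3% for Psmb8, while Psmb10 has 1 transcript. Psmb9 footprints numbered 2 and 11 in untreated progenitors (replicates 1 and 2), 1 and 17 in untreated HFSCs, 0 and 0 in treated progenitors and 8 and 10 in treated HFSCs. Treated progenitors were the group with no footprint, which allows up to 3 counts over the group. Against that limit the observed level was 4.17-fold higher in treated HFSCs and 2.13-fold higher in untreated progenitors. Counting error was allowed for in treated progenitors only, so these values are not lower limits of the difference. Neither comparison was called by edgeR (adjusted P=0.35 and 1.0). Over both treatments the adjusted P of HFSC over progenitor was 0.20, the lowest of any member in that comparison. Psmb8 had 0 and 48 footprints in untreated progenitors, 6 and 31 in untreated HFSCs, 4 and 19 in treated progenitors and 31 and 18 in treated HFSCs. Scaled to library size, replicate 2 was above replicate 1 in each group for Psmb8, and the groups overlapped. Psmb10 had 5 and 19, 4 and 10, 5 and 1, and 12 and 5 footprints in the same order.

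No member was called in any footprint comparison by edgeR or by DESeq2, against the edgeR calls of 0.0118% (untreated) and 0.0355% (treated) of 8440 genes between cell types, and 0.0237% (progenitors) and 0.0% (HFSCs) for N1-AcSpd. For the means over both treatments and over both cell types the percentages were 0.154 and 0.0829, and for the interaction 0.0. DESeq2 called 0.0% to 0.933% of the genes with an adjusted P, which in HFSC over progenitor over both treatments were 750 genes and 18 members. Unadjusted P-values under 0.05 by edgeR were found for 2, 2, 2, 3, 1, 4 and 2 of 47 members in these 7 comparisons, against 2.64%, 3.45%, 2.83%, 3.54%, 4.14%, 4.85% and 2.73% of genes.

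Psma2, an alpha-ring subunit, had a lower mean footprint level in untreated HFSCs than in the other 3 groups. Its counts were 10 and 86 in untreated progenitors, 5 and 15 in untreated HFSCs, 22 and 8 in treated progenitors and 42 and 17 in treated HFSCs. The log2 fold change of untreated HFSCs over untreated progenitors was −1.53 ± 0.56 (unadjusted P=0.0063, adjusted P=1.0 by edgeR), and that of N1-AcSpd in HFSCs was 1.42 ± 0.57 (unadjusted P=0.012). The interaction was 2.01 ± 0.78 (unadjusted P=0.0095, adjusted P=1.0). Psmb6 had 8 and 66, 4 and 17, 15 and 16, and 39 and 14 footprints in the same order, with −1.14 ± 0.57 for untreated HFSCs over progenitors (unadjusted P=0.047) and 1.21 ± 0.57 for N1-AcSpd in HFSCs (unadjusted P=0.035). Psma2 RNA differed less between these groups, at 207 and 204 CPM in untreated progenitors, 184 and 191 in untreated HFSCs, 229 and 212 in treated progenitors and 192 and 246 in treated HFSCs. Neither gene's footprints passed the adjusted threshold.

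Psmc5, a cap ATPase, had more footprints with N1-AcSpd in all 4 treated libraries after scaling, a pattern shared with Psma3 (2 of 47 members, against 1.49% of genes). Psma3 counts were near the floor, with 8 footprints in 5 of the 8 libraries, and 92.4% of its coding words occur elsewhere. No member's treated libraries were all below the untreated ones (1.54% of genes did), and no member's HFSC libraries were all above (1.56%) or all below (1.15%) the progenitor libraries. Psmc5 counts were 8 and 98 in untreated progenitors, 15 and 52 in untreated HFSCs, 67 and 33 in treated progenitors and 79 and 34 in treated HFSCs. The log2 fold change over both cell types was 0.88 ± 0.31 (unadjusted P=0.0045, adjusted P=0.67 by edgeR). Psme3 had 7 and 24, 3 and 6, 9 and 13, and 22 and 10 footprints in the same order, and N1-AcSpd in HFSCs gave 1.66 ± 0.74 (unadjusted P=0.025). Psmd7 had 14 and 75, 23 and 32, 24 and 12, and 56 and 37 footprints, with 0.97 ± 0.48 for treated HFSCs over treated progenitors (unadjusted P=0.044). None of these passed the adjusted threshold.

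**Figure D4:**
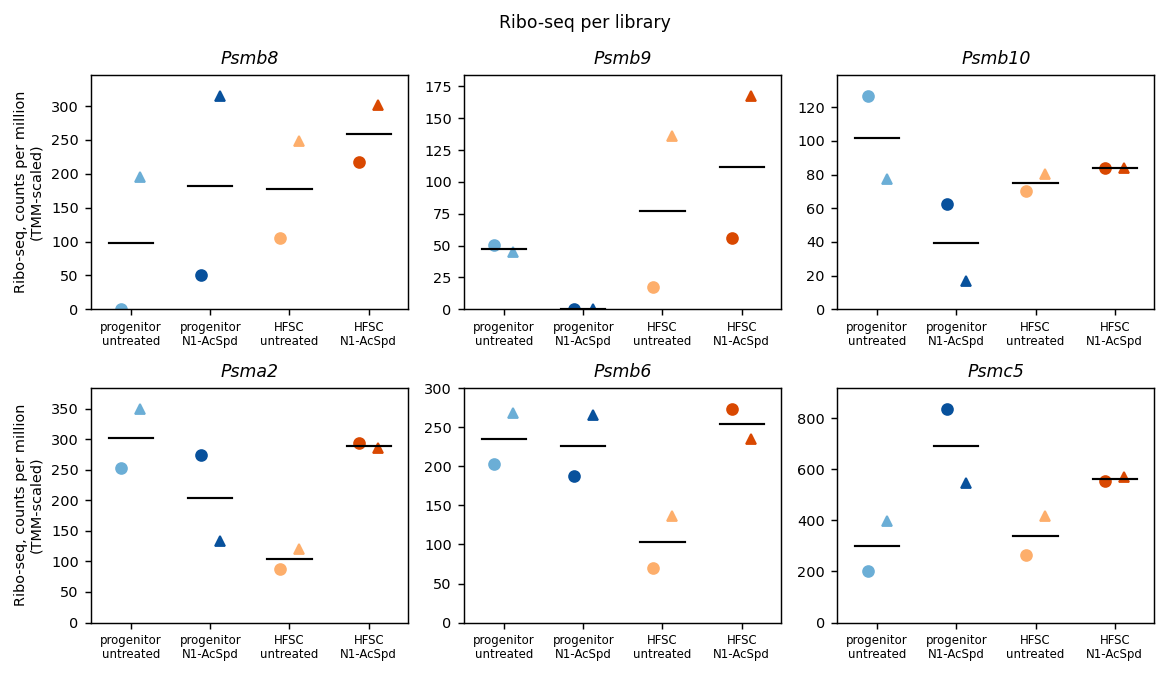
Ribo-seq level of 6 members in each library, in TMM-scaled CPM (linear axes from 0). Circles are replicate 1, triangles replicate 2 and lines the mean of the 2 libraries. Psmb9 is at 0 in both treated progenitor libraries, Psma2 and Psmb6 have their lowest group mean in untreated HFSCs, and Psmc5 is higher in all 4 treated libraries.

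Translational efficiency (TE), tested as the interaction of assay and group, gave no call among members by edgeR or by DESeq2 and 0.0% of genes called by edgeR in all 6 comparisons of cell type and N1-AcSpd. For N1-AcSpd over both cell types DESeq2 gave an adjusted P to only 1 member and called 1.42% of 422 genes, and it called 0.0% in the other 5. Members with an unadjusted P under 0.05 numbered 3 (untreated cells) and 2 (treated cells) between cell types, 3 (progenitors) and 5 (HFSCs) for N1-AcSpd, and 1 and 4 for the 2 means, of 46 or 47 members tested. The percentages of genes were 5.23, 6.25, 6.0, 6.9, 6.01 and 7.35. TE of Psma2 was lower in untreated HFSCs than in untreated progenitors by −1.49 ± 0.42 (unadjusted P=0.0024, adjusted P=0.91). TE of Psmc5 with N1-AcSpd had 0.68 ± 0.25 (unadjusted P=0.013, adjusted P=0.59). TE of Psmb3, a constitutive beta subunit with copies elsewhere, had −1.22 ± 0.41 with N1-AcSpd (unadjusted P=0.0071, adjusted P=0.58), from 3 and 60, 8 and 32, 10 and 5, and 8 and 12 footprints in the order of groups used above.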

How the data were processed

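Per the labels and the study's methods, the authors deposited raw read counts per transcript for 8 RNA-seq and 8 Ribo-seq libraries. They had trimmed reads (flexbar), filtered them against rRNA and tRNA (Bowtie 1.2.3) and aligned the rest to GRCm38.p5 (STAR 2.7.3a), and their notes name featureCounts. The counted region, strand and treatment of multiple matches are not given in the sources used here. The authors' Riborex tables were used only for gene names, and 14 further columns of that table (repeated counts and the authors' own comparisons) were not used. From the deposited counts, 1 transcript per gene was kept and CPM were computed on TMM-scaled library sizes. Comparisons used edgeR 4.0.16 (R 4.3.3): each assay was fitted on its 4 groups by quasi-likelihood after genes whose mean count was under 1 were dropped, with Benjamini-Hochberg adjustment over all remaining genes and a threshold of 0.05. TE used the interaction of assay and group. All comparisons share libraries. Exact permutation tests were not used for 2 libraries against 2, since they cannot go below P=0.333 there. That reason does not cover the means over both treatments or both cell types, for which none was run either. Scripts were tested on simulated data.

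Replicate numbers correspond to the donor mouse given in the labels and so pair the samples by label. The correlations of the differences between replicates are given with the results for RNA-seq and were 0.02 to 0.11 for Ribo-seq (2261 genes). Alternatives were DESeq2 1.42.0, RLE factors, other count minimums, a replicate block, only the libraries compared, and each library left out. Sums over transcripts and a block with exchanged numbers were added once the data were known. Members and lists were chosen with earlier results of these data known. A gene of the interferon list is not reported here and was left out of its counts. Named one by one were the active-site subunits, Psmd11, Psmd14, called members and, per comparison, the 3 smallest P-values in each direction (mean of at least 10 counts, same direction in both mice) where they add to the account.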

Additional observations from a re-analysis of the deposited data

How the results depend on the processing

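Members called numbered 2 for HFSC over progenitor over both treatments and 0 in every other RNA-seq, Ribo-seq and TE comparison. The replicate block as labelled gave the same numbers (2 and 0), with adjusted P=0.021 for Psmb8 and 0.029 for Psmb9 by edgeR, and the pairing it rests on is contradicted by the treated HFSC RNA-seq libraries. With their numbers exchanged, RNA-seq gave 2 calls between cell types in untreated and in treated cells, 2 for N1-AcSpd in progenitors (3.1% of all genes), 1 in HFSCs (1.89%) and 2 over both, and 3 instead of 2 between cell types over both treatments. DESeq2 gave 1 call between cell types in untreated and 1 in treated cells and 1 for N1-AcSpd over both cell types. Testing without a count minimum gave 1 in the latter 2 comparisons (1.63% and 2.57% of 16045 genes), and sums over transcripts gave 1 of the 2 calls over both treatments (3.27% of genes). Leaving out a library gave 0 to 2. For these the cause was not tested.

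Single-gene values were compared with 761 same, 15 newly past the threshold, 1 lost and 2 of opposite sign in these alternatives. Sums over transcripts turned Psmd3 in untreated HFSCs over progenitors to −0.25 for footprints and −0.14 for TE, and more transcripts enter there. Leaving out libraries turned the sign of 21 values, lost 12 calls and left 1173 values as they were. The same fits moved 26 medians over genes and left 170 as they were. In RNA-seq, N1-AcSpd ranged from −0.12 to 0.0092 for Psme1 in progenitors, from −0.27 to 0.083 in HFSCs and from −0.16 to 0.017 over both. It ranged from −0.12 to 0.043 for Psmd9 in HFSCs. Untreated footprints for HFSC over progenitor ranged from −0.35 to 6.94 for Psmb8 and from −0.38 to 1.33 for Psmd9, and N1-AcSpd in progenitors from −0.045 to 1.68 for Psmd12. TE for HFSC over progenitor ranged from −0.58 to 1.26 for Psmd9 (untreated), from −0.60 to 0.55 for Psmb2 and −0.34 to 0.18 for Psmb1 (treated), and from −0.13 to 0.77 for Psmc1 (both). TE for N1-AcSpd in progenitors ranged from −1.15 to 14.5 for Psmb8, from −0.014 to 0.29 for Psma6 and from −0.48 to 0.03 for Psmb6. Where leaving out a library leaves Psmb8 at 0 footprints in a group, the fitted value depends on the prior count and is no measure of size. Ribo-seq depth, 34475 counts in the shallowest library, limits all footprint and TE results.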
